A study of Mus musculus with 89 samples.

Results

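The stroma of mouse squamous cell carcinoma after treatment was compared between relapse and the acute phase, using all 14 segments that the authors' annotation names relapse stroma and all 9 that it names acute stroma, out of 89 segments in all. A segment is an area of a tissue section, drawn on a stained image, from which ultraviolet light released the oligonucleotide tags of the GeoMx mouse whole transcriptome panel, and the tags were then sequenced. The labels call every segment neutrophil and the tissue TME, and the design text speaks of spontaneous tumours and of responses to immunotherapies. The agent, its dose, the times, the genotype, the age and the number of animals are not given in the sources used here. Each stage lay on 1 slide of its own, and the scan name of the relapse slide adds DMBA, that of the slide before treatment adds a name for another tumour model, and that of the acute slide adds none. The annotation also names the relapse slide by a word for treatment, so stage, slide and possibly tumour model cannot be told apart. All 14 relapse segments were collected on the plate named H, 5 acute segments on plate H and 4 on plate G. Segments are given here by number within their class, acute no. 1 to 9 and relapse no. 1 to 14, which is a name and no order.

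Squamous carcinomas grow as nests of keratinocytes in a stroma of fibroblasts, collagen, vessels and immune cells. Basal keratinocytes carry the keratins Krt5 and Krt14, and wounded, hyperproliferative or transformed epidermis adds Krt6a, Krt6b and Krt16. Fibroblasts make the fibrillar collagens and small matrix proteins, B and plasma cells make the immunoglobulin chains, and neutrophils enter such tissue from the blood.

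The deposited values are tag counts divided by a factor per segment, and multiplying by that factor gave back counts with a floor of 1 for every target. Depth, the sum of counts above that floor, ran from 1807 to 20416 in relapse stroma (median 3964) and from 2109 to 208675 in acute stroma (median 64652). Depth was therefore 6.32-fold lower in relapse stroma by geometric means (exact permutation test over segments, two-sided, p = 0.0028; 14 and 9 segments), and 16-fold lower against the 5 acute segments of plate H (exact permutation test, two-sided, p = 0.000516). The number of nuclei overlapped, at 20 to 108 in relapse segments and 9 to 214 in acute segments. Of all targets, a median of 88.6% sat at the floor in relapse stroma and 13.7% in acute stroma. The 929 olfactory receptor targets, used here as a measure of background, had a mean of 0.537 to 1.02 times that of all targets in relapse segments and 0.739 to 1.44 times in acute segments. In 5 of the 9 acute segments (nos. 1, 5, 6, 7 and 8) this ratio was 1.13 or more, and in acute nos. 2, 3, 4 and 9, which lie near one another on the slide, it was 0.739 to 0.879. Depth and background differed between the groups together, and their part in the results below was not tested beyond the settings named.

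**Figure D1:**
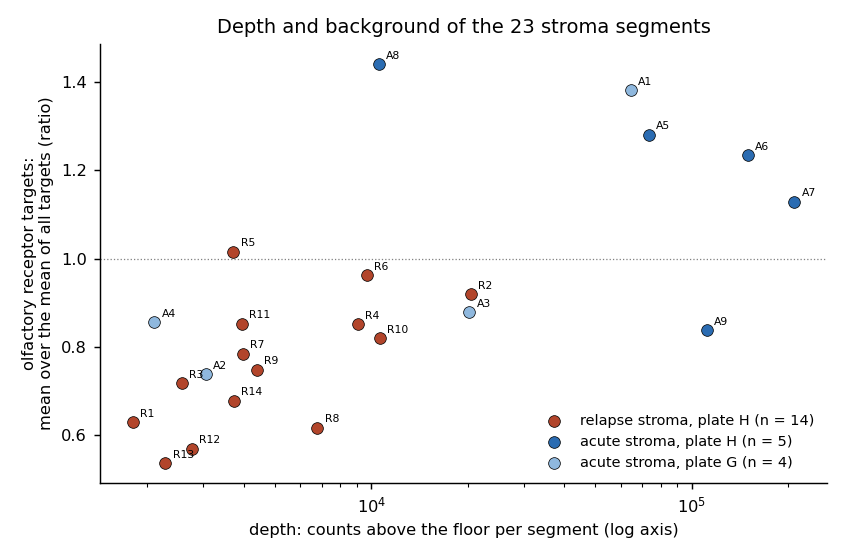
Each point is 1 stroma segment, with depth (counts above the floor, log axis) against the ratio of the mean olfactory receptor target to the mean of all targets; A and R with a number name acute and relapse segments, and colour gives group and plate. The relapse segments lie between depths of 1807 and 20416, whereas 5 acute segments hold 64652 or more, and 5 acute segments have ratios of 1.13 or more.

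Levels are given below as counts above the floor per 10000 such counts in the segment, and differences as log2 of relapse over acute on the scale log2(level + 1), fitted with log2 depth as a covariate. Differences on this scale understate the change of low targets. Only 117 of 19962 targets were abundant enough to be tested, namely those expected to give at least 2 counts at the median depth of relapse stroma. Of these, 53 differed (45.3% of the targets tested, limma, Benjamini-Hochberg adjusted p under 0.05). In relapse stroma 45 were higher (38.5%) and 8 lower (6.84%). The median difference of all 117 was 0.83, and 80 of the 117 fitted differences were above 0. The filter itself favours one side: 55 targets reached 2 expected counts through their relapse mean alone, 6 through their acute mean alone and 56 through both. A target that passed through 1 group had to be high there, so counts of calls and medians, over all targets or a list, describe the targets that passed and support no direction. After each segment was centred on the median of the tested targets, 25 differed, of which 7 were higher (5.98%) and 18 lower (15.4%) in relapse stroma. That median comes from the same filtered targets, and centring moved every fitted difference down. Lower calls gained by centring therefore support no direction either. The labels do not tie segments to animals or tumours, and neighbouring segments share tissue, so p-values over segments are too small.

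Krt16 and Krt6a, keratins of stressed epidermis, were the targets with the largest rise in relapse stroma, and Krt6b rose less. These 3 were the tested members of the stress and wound keratinocyte list, of which 15 of 18 genes are on the panel, and all 3 passed the filter through their relapse mean alone. Krt6a (chr15:101689928-101694305, GRCm38.p6), a type II keratin of wounded and tumour epidermis, had levels of 1.24, 0, 0, 0, 0.273, 2.62, 0.479, 0 and 0.899 in acute nos. 1 to 9. In the 14 relapse segments Krt6a ran from 3.43 to 29.05 with a median of 16.3. Every relapse segment was above every acute segment. The fitted difference of Krt6a was 3.12 (SE 0.547, adjusted p = 0.00013), or 8.69-fold. Krt16 (chr11:100246091-100248902), the type I keratin that pairs with the Krt6 keratins, was at 1.08, 0, 0.494, 0, 0.545, 1.88, 0.431, 0 and 1.62 in acute nos. 1 to 9. Its levels in relapse stroma were 1.96 to 34.9 with a median of 14.1, and the groups again did not overlap. Krt16 differed by 3.13 (SE 0.575, adjusted p = 0.000202). Krt6b (chr15:101676023-101680293), a close paralog of Krt6a, ran from 0 to 3.27 in acute stroma and from 0 to 32.1 in relapse stroma, where it was at 0 in relapse no. 5 alone. Its difference was 1.88 (SE 0.627, adjusted p = 0.0171), and 2.24 without the depth covariate; its call was lost without acute no. 4 (1.23, adjusted p = 0.166). How far the probes separate Krt6a from Krt6b is uncertain, since the probe sequences were not used here.

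The absolute counts behind these levels were few. Krt6a gave 2 to 10 counts above the floor in each relapse segment, and 0 to 39 in the acute segments, which were mostly far deeper. In the 4 acute segments where Krt6a was at 0, a count of 0 allows up to 3 counts, which is 2.83 per 10000 in acute no. 8 and 14.2 in acute no. 4, so the absence of overlap rests on the deeper acute segments. These limits cover counting error only. In the deepest acute segment, no. 7, 10 counts of Krt6a among 208675 gave 0.479 per 10000, beside a mean of 0.37 to 0.722 per olfactory receptor target in acute stroma.

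The basal keratins rose as well. Krt5 and Krt14 were called, and they were the only members of the basal keratinocyte list tested (22 on the panel), both passing the filter through relapse stroma alone. Krt5 (chr15:101707069-101712905), the type II keratin of basal keratinocytes, was at 0.619, 0, 1.48, 0, 0.818, 2.15, 0.431, 0 and 1.44 in acute nos. 1 to 9 and at 0 to 31.1 (median 8.78) in relapse stroma. All relapse segments but no. 6, which was at 0, lay above the highest acute segment. Krt5 differed by 2.35 (SE 0.644, adjusted p = 0.00549). Krt14 (chr11:100203162-100207510), its type I partner, ran from 0.494 to 4.74 in acute stroma with a median of 1.24, and from 3.10 to 38.7 in relapse stroma with a median of 19.2. The highest acute value, in no. 4, exceeded the lowest relapse values, in nos. 6 and 8. Krt14 differed by 1.83 (SE 0.48, adjusted p = 0.00452), and by 2.50 without the depth covariate. After centring, Krt16, Krt6a and Krt5 stayed past the threshold (adjusted p of 0.00469, 0.00436 and 0.0403), and Krt14 and Krt6b did not (0.061 and 0.155). None of the 23 keratinocyte differentiation genes was abundant enough to be tested, and their summed level overlapped between the groups, at 7.26 to 42.8 in relapse stroma (median 21.8) and 10.1 to 29.5 in acute stroma (median 14.95). Epcam, an adhesion protein of epithelium, had no count above the floor in any relapse segment. In acute segments Epcam gave 0 to 5 counts, or at most 0.36 per 10000, so its absence at the relapse depths says little. The 5 keratins all lost their call without the neighbouring acute nos. 2, 3, 4 and 9 (differences of 0.79 to 2.0, adjusted p of 0.173 to 0.701), although all stayed higher in relapse stroma.

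**Figure D2:**
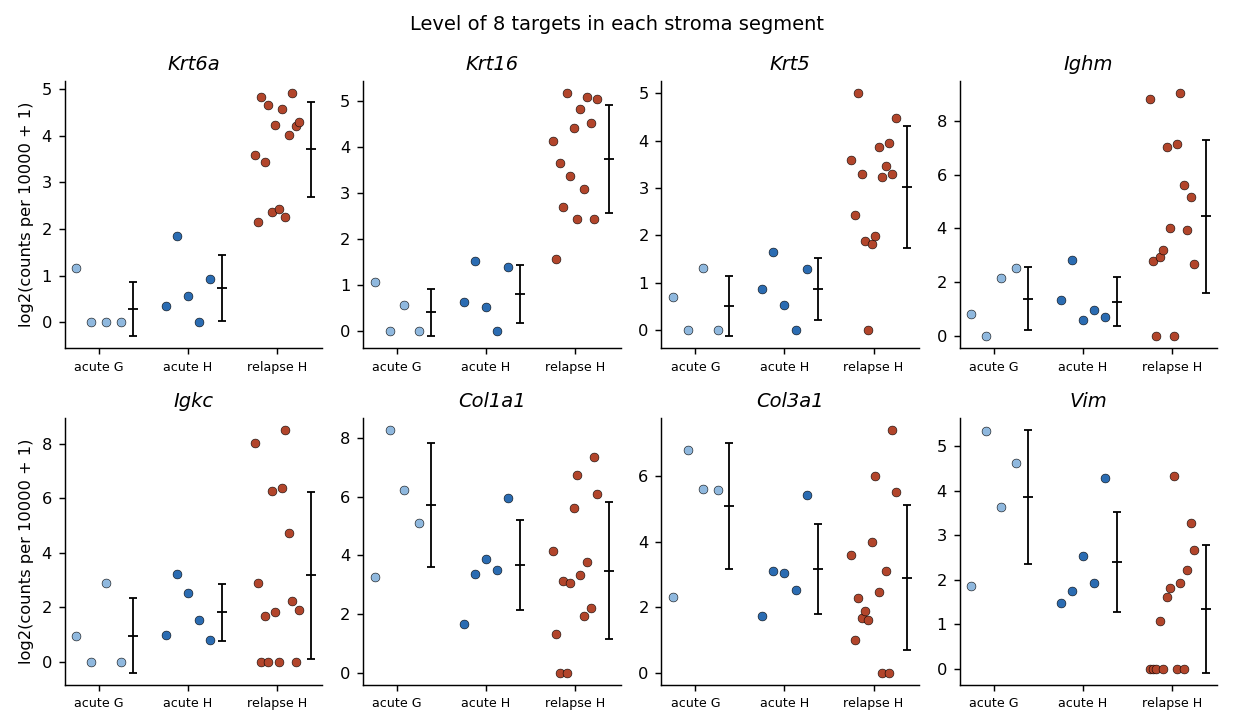
Points are single segments, as log2(counts above the floor per 10000 + 1), for 8 targets in acute stroma of plate G (n = 4), acute stroma of plate H (n = 5) and relapse stroma of plate H (n = 14); the horizontal dash and bar give the mean and SD. Every relapse segment is above every acute segment for Krt6a and Krt16, while Ighm and Igkc are spread widely within relapse stroma and the 2 collagens and Vim overlap between the groups.

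Immunoglobulin transcripts were high in some relapse segments and low in others. Ighm (chr12:113418826-113422730), the constant region of the IgM heavy chain, was at 0.773, 0, 3.46, 4.74, 1.5, 6.04, 0.527, 0.945 and 0.629 in acute nos. 1 to 9. In relapse stroma the level of Ighm was 0 in nos. 3 and 8, between 5.35 and 48 in 8 segments, 129 in no. 6, 141 in no. 9, 448 in no. 1 and 522.5 in no. 10. The median of Ighm was 14.8 in relapse stroma and 0.945 in acute stroma, and the groups overlapped at the low end. Ighm rose by 3.06 (SE 1.10, adjusted p = 0.0246). Its call was lost without relapse no. 10 or without acute no. 2 (adjusted p of up to 0.125 over all segments left out in turn), and after centring (2.35, adjusted p = 0.138). Igkc (chr6:70726435-70726754), the kappa light chain constant region and a list member named here after its values were seen, was highest in the same 4 relapse segments, at 260, 75.4, 82 and 361.8 in nos. 1, 6, 9 and 10. Elsewhere in relapse stroma Igkc was between 0 and 25.3, and in acute stroma between 0 and 8.38. Its difference was 2.66 (SE 1.18, adjusted p = 0.0648), which did not pass. The high segments lie in 3 of the 4 groups of neighbouring relapse segments: nos. 1 and 9 side by side, no. 10 in the largest group and no. 6 by itself. These 2 genes were the tested members of the immunoglobulin, B and plasma cell list (22 on the panel), and both passed the filter through relapse stroma alone.

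Fibroblast and matrix transcripts were lower in relapse stroma in the fit with log2 depth as a covariate. Thinning all segments but relapse no. 1 to equal depth, fitted without that covariate, did not keep this fall past the threshold. Of the 7 tested members of that list (33 on the panel) 5 fell and none rose, beside 6.84% lower and 38.5% higher among all 117 tested targets. Bgn, Vim and Postn passed the filter through acute stroma alone, and Col1a1, Col1a2, Col3a1 and Sparc through both groups. The 2 that were not called were Col1a1 and Postn. After centring, which moved every difference down, both passed (-3.02 and -2.51, adjusted p of 0.0252 and 0.0386), as did the other 5. Those calls add no support for a fall. Col1a1 (chr11:94936224-94953042), a chain of type I collagen, was at 8.51, 307.8, 73.1, 33.2, 2.18, 9.19, 13.8, 10.4 and 60.7 in acute nos. 1 to 9. In relapse stroma Col1a1 ran from 0 (nos. 3 and 5) to 162 (no. 13), with a median of 8.40 against 13.8 in acute stroma. The ranges overlapped nearly throughout, and the difference of Col1a1 was -2.32 (SE 0.975, adjusted p = 0.0516). Col3a1 (chr1:45311538-45349706), the type III collagen chain, was at 4.02, 111, 48.4, 47.4, 2.32, 7.65, 7.24, 4.72 and 41.9 in acute nos. 1 to 9. In relapse stroma Col3a1 ran from 0 to 171 with a median of 4.22. It differed by -2.57 (SE 0.896, adjusted p = 0.0217). Col1a2 (chr6:4505618-4541543), the other type I collagen chain, differed by -2.53 (adjusted p = 0.0208). Vim (chr2:13574311-13582826), the intermediate filament of mesenchymal cells, was above the floor in all 9 acute segments (1.77 to 39.3, median 4.84) and at 0 in 6 of the 14 relapse segments (maximum 19.1, median 1.58). Its difference was -2.47 (SE 0.749, adjusted p = 0.0111). Sparc, a secreted collagen-binding protein, and Bgn, the proteoglycan biglycan, differed by -2.18 and -2.14 (adjusted p of 0.034 and 0.0171).

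Within each stage these matrix genes were high in the same segments. Acute nos. 2, 3, 4 and 9, the neighbouring group with the lower olfactory receptor ratio, held the 4 highest acute levels of Col1a1, Col3a1, Col1a2, Vim, Sparc and Bgn. In relapse stroma nos. 8, 13 and 14 held the 3 highest levels of Col3a1, Col1a2, Vim and Sparc. The calls rested on few segments. Without acute no. 2 alone, a segment of 3054 counts, none of the 5 genes that fell passed (differences of -2.21 to -1.52, adjusted p of 0.0828 to 0.182), and without acute no. 4 only Col3a1 did. None passed without the 9 neighbouring relapse segments of the largest group either (-2.62 to -1.64). Without the 4 neighbouring acute segments none of the 5 genes that fell passed (differences of -1.34 to 0.08), and Bgn changed sign. The calls also depended on the depth covariate and the scaling. Without the covariate Vim alone passed (-1.69, adjusted p = 0.0157) and the other 4 did not (adjusted p up to 0.201). On the deposited upper-quartile values, also without it, Col3a1, Vim, Sparc and Bgn passed and Col1a2 did not. The differences of the 5 were -1.70 to -1.17 there (limma, adjusted p of 0.00974 to 0.102). The 13 relapse and 9 acute segments with at least 2000 counts were also thinned to 2000 and fitted without the covariate. None of the 5 passed there (differences of -1.11 to -0.76). The shallow relapse segments leave little room to measure low matrix levels, since 3 counts were 1.47 to 16.6 per 10000 there.

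The other tested lists held few called members. Gapdh (chr6:125161852-125166467), a glycolytic enzyme and the 1 tested member of the glycolysis and hypoxia list, was at 0 to 4.74 in acute stroma and 1.03 to 29.6 in relapse stroma, and rose by 1.68 (adjusted p = 0.0125), a call lost without acute no. 2, where it was at 0 (1.0, adjusted p = 0.152), and after centring (0.97, adjusted p = 0.169). The 16 tested cytosolic ribosomal proteins had a median difference of 0.03, beside 0.83 for all tested targets, and of 0.58 on plate H. The summed level of the 81 on the panel, not fitted for depth, was 195.2 to 484.4 in relapse stroma (median 319.4). In acute stroma that sum was 132.9 to 445.6 (median 169). Hp (chr8:109575128-109579172), haptoglobin, which binds free haemoglobin, fell by 2.25 (adjusted p = 0.0246). Hp was highest in acute nos. 3 and 4, at 43.5 and 33.2, and was at 0 in 8 of 14 relapse segments; its call was lost without acute no. 3 (-1.76, adjusted p = 0.0615) or no. 4 (-1.59, adjusted p = 0.175). Cxcl14 (chr13:56288643-56296811), a chemokine of epithelium and stroma, fell by 2.24 (adjusted p = 0.0348). It reached 28.4 in acute no. 4, and in relapse stroma it was at 0 in 10 segments and at 56.97 in no. 13. Its call was lost without any 1 of acute nos. 2, 3 and 4 and relapse nos. 4 and 10 (adjusted p of 0.0502 to 0.191). Gapdh passed the filter through its relapse mean alone, and Hp and Cxcl14 through their acute means alone. No member of the macrophage list (4 tested: Apoe, Grn, Lgmn and Psap) or of the MHC class I list (3 tested: B2m, H2-D1 and H2-K1) passed. B2m, the light chain of class I molecules, differed by -2.01 (SE 0.928, adjusted p = 0.0731). After centring, which moved every difference down, B2m, H2-K1 and Psap passed as lower in relapse stroma (-2.71, -2.01 and -2.14, adjusted p of 0.0343, 0.0406 and 0.0403). No member of the neutrophil, interferon, T and NK cell, MHC class II or endothelial lists was abundant enough to be tested.

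The remaining changes were mostly in targets with gene model names. Of the 117 tested targets 41 carried Gm, LOC or Rik names, and 26 of these were higher and 1 lower in relapse stroma. Of the 76 other targets 19 were higher and 7 lower, and of all 117 38.5% were higher and 6.84% lower. Many of the 41 passed the filter through their relapse mean alone, as did 55 of all 117. The median difference was 1.12 for the 41 and 0.16 for the 76. After centring 1 of the 41 was higher and 1 lower. Vmn2r46 (chr7:9754636-9770571), a vomeronasal receptor of a large family of similar genes, was at 3.87, 3.27, 6.42, 0, 3.41, 3.96, 3.59, 0.945 and 3.77 in acute nos. 1 to 9 and at 8.77 to 47.2 in relapse stroma. The groups did not overlap, and Vmn2r46 differed by 2.74 (SE 0.432, adjusted p = 6.67e-05). Clec2j (chr6:128655105-128657027), annotated as a pseudogene, differed by 2.82 (adjusted p = 0.00208) and Gm10662 by 2.39 (adjusted p = 0.00049). Hnrnpa3, an RNA-binding protein, Klrg2 and Srsx differed by 2.35, 2.28 and 2.0. Vmn2r46, Clec2j, Gm10662, Hnrnpa3, Klrg2 and Srsx all passed the filter through their relapse mean alone. The 1 model name that fell was Gm52523, by 1.37 (adjusted p = 0.0317). In all, 4 tested targets had every relapse segment above every acute segment, Krt6a, Krt16, Vmn2r46 and Gm21783, and none had every relapse segment below. Of these, Gm21783 alone passed the filter through both groups.

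**Figure D3:**
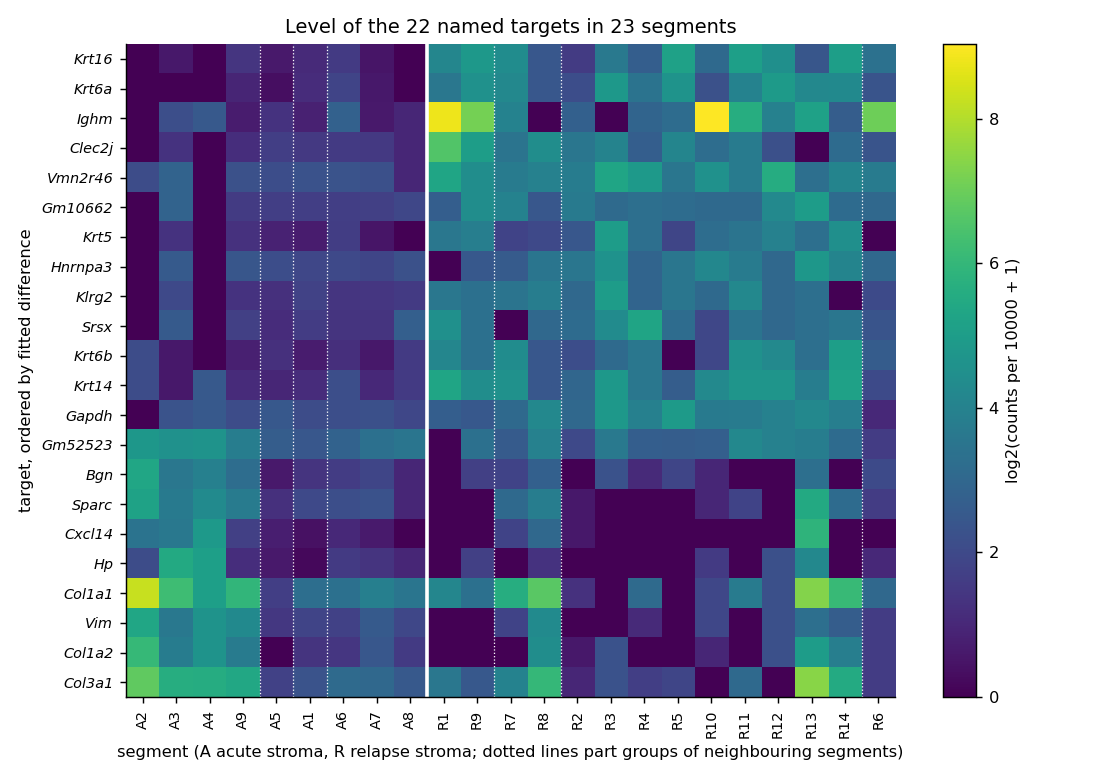
Colour gives log2(counts above the floor per 10000 + 1) of 22 targets, ordered by fitted difference, in 9 acute (A) and 14 relapse (R) segments; dotted lines part groups of neighbouring segments. The keratin rows are brighter across the relapse columns, the matrix rows at the bottom are brightest in A2, A3, A4 and A9 and in R8, R13 and R14, and Ighm is brightest in R1, R6, R9 and R10.

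Within plate H, which holds all relapse segments and 5 acute segments (nos. 5 to 9), fewer differences passed. Of the same 117 targets 11 were called (9.4%), all higher in relapse stroma, and the median difference was 1.01. The 11 were Gm10406, Gm20792, Gm21783, Gm3248, Gm52800, Gm6958, Gm8094, LOC118568632, LOC118568783, Vmn1r100 and Vmn2r46, so 9 had gene model names and 2 were vomeronasal receptors. These are named after their values were seen. No keratin, immunoglobulin or matrix gene was among them. Vmn2r46 differed by 2.49 on plate H (SE 0.691, adjusted p = 0.0302). Among the 11, Vmn2r46 and Gm20792 had passed the filter through their relapse mean alone.

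On plate H Krt6a and Krt16 still did not overlap, but the fitted differences were imprecise. For Krt16, acute no. 8 was at 0, where 3 counts would be 2.83 per 10000, above the lowest relapse level of 1.96. Krt6a differed by 1.76 (SE 0.914, adjusted p = 0.239) and Krt16 by 1.98 (SE 0.996, adjusted p = 0.223). Krt5, Krt14 and Krt6b differed by 1.34, 1.18 and 0.70 (adjusted p of 0.514, 0.422 and 0.774). Depth and stage were nearly separate there, with acute no. 8 (9 nuclei, 10587 counts) the only acute segment within the depths of relapse stroma. Without acute no. 8 the fitted differences of Krt6a, Krt16 and Krt5 changed sign, to -0.57, -0.18 and -0.76, and no target was called. Without the depth covariate Krt6a and Krt16 differed by 2.97 and 2.93 (adjusted p of 1.91e-05 and 5.23e-05), and Krt5 by 2.16 (adjusted p = 0.00429). Ighm differed by 3.15 on plate H (SE 2.02, adjusted p = 0.349), about the same size as over both plates. The matrix genes Col1a1, Col3a1 and Vim differed by -1.01, -1.76 and -0.70 (adjusted p of 0.783, 0.557 and 0.817). After centring no target was called on plate H. In all, 28 of the 117 tested targets had every relapse segment above every acute segment of plate H, so such a separation was not particular to the keratins.

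**Figure D4:**
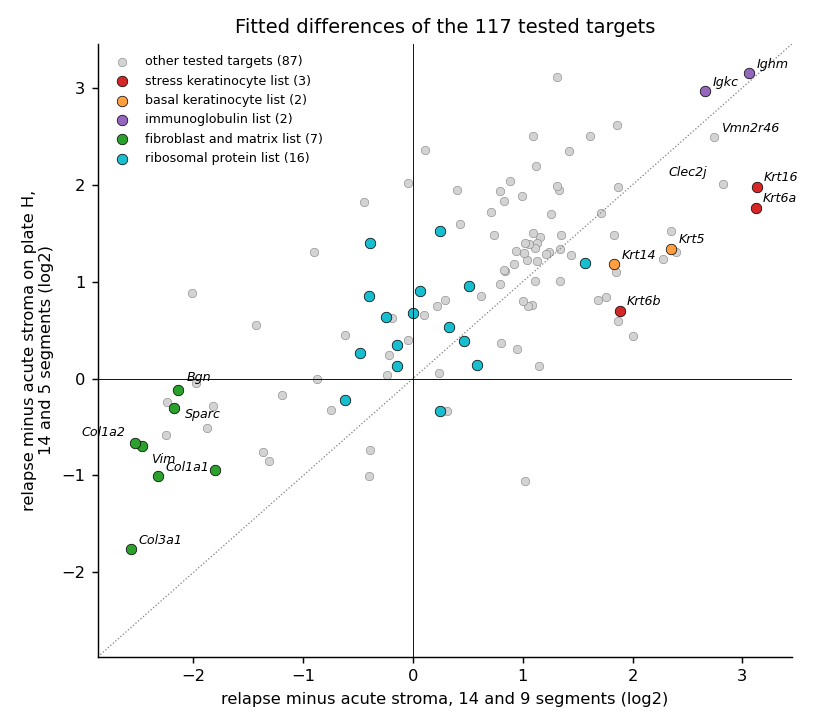
Each point is 1 of 117 tested targets, with the fitted difference of relapse minus acute stroma over 14 and 9 segments against that over the 14 and 5 segments of plate H (log2); colours mark gene lists and the dotted line marks equal values. Ighm and Igkc lie near equality, the keratins lie at smaller differences on plate H, and Col1a1 moves from -2.32 to -1.01.

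With plate as a covariate over all 23 segments, 19 targets were called, all higher in relapse stroma. Krt6a and Krt16 were among them (2.56 and 2.71, both adjusted p = 0.0337), and Krt5 was not (2.0, adjusted p = 0.152). None of the 5 matrix genes passed in that fit (adjusted p of 0.25 to 0.506). In segments whose depth lay in the range shared by both groups (13 relapse and 4 acute), fitted without the depth covariate, all 5 keratins passed with differences of 2.08 to 3.72, and of the 5 matrix genes Vim alone passed (-2.43, adjusted p = 0.0347).

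The stroma before treatment, 15 segments of another slide on plate G, gives a reference measured the same way. Krt6a there ran from 0 to 7.80 (median 0.955) and Krt16 from 0 to 8.12 (median 2.08), between the acute and relapse medians. Ighm ran from 0 to 3.20 with a median of 0.550. Igkc had a median of 0 and reached 259.6 in 1 of these segments, about its level in relapse no. 1. Col1a1 ran from 4.85 to 154.5 with a median of 84.3, and Col3a1 had a median of 59.97, both above the medians of acute and relapse stroma. These levels are set side by side with no test, since each stage is a slide.

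Markers of the labelled cell type were low in both groups. Of the neutrophil markers S100a8, S100a9, Ly6g, Csf3r and Cxcr2, all 5 on the panel, the summed level was 0 to 16.1 in relapse stroma (median 6.06) and 0 to 4.45 in acute stroma (median 3.98), with 56 counts above the floor in all relapse segments together. Keratinocyte markers (Krt5, Krt14, Epcam and Trp63, 4 of 4 on the panel) summed to 3.10 to 58.3 in relapse stroma and 1.89 to 6.17 in acute stroma. The relapse sum came from Krt5 and Krt14: of its 182 counts Epcam gave 0, and Trp63 gave 2, all in no. 2. In acute segments Trp63 gave 0 to 9 counts, or at most 0.62 per 10000, so its absence at the relapse depths says little. Fibroblast markers (6 of 6) summed to 2.69 to 408 and 6.68 to 498. Macrophage markers (6 of 6) summed to 0 to 53 in relapse stroma and 0 to 26.2 in acute stroma, and T cell markers (5 of 5) to 0 to 7.69 and 0 to 2.83. Skeletal muscle markers (4 of 4) reached 10.1 in relapse stroma and 27.4 in acute stroma. In such segments fewer cells of a type and less RNA per cell cannot be told apart, and how far the segments differ in their share of tumour cells was not tested.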

How the data were processed

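Tags of the GeoMx mouse whole transcriptome panel were counted in 89 segments, of which 23 enter here. The authors deposited a normalised signal per target and segment, and a deposited upper-quartile ratio per segment. The submitters' processing notes name Seurat and the build mm10; the counting tools are not given in the sources used here. Signal times ratio gave whole numbers within 1e-06 for 99.986% of values; 3 of 19962 targets held values that were not whole, and the negative-probe target was left out. Counts above the floor of 1 were scaled to 10000 per segment. Groups came from the authors' annotation and plates from the segment names.

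Tests used limma 3.58.1 in R 4.3.3 (lmFit, eBayes with trend, two-sided) on log2(level + 1) with log2 depth as covariate, on the 14 and 9 segments, repeated with the 5 acute segments of plate H. The replication unit was the segment, and p-values measure only the spread between segments. The limit of quantitation was the larger of 2 counts and the negative-probe geometric mean times its geometric SD to the power 2. The fit was also run on simulated counts, drawn independently for each segment with the same extra spread for every target. Those counts held no plate, position group or background difference, so that run cannot measure their effect on the p-values. Alternatives covered scaling, floor, pseudocount, filter, thinning, depth range, plate and segments left out. Segments under 8000 coordinate units from a neighbour formed a position group. Positions come from RefSeq (GRCm38.p6); 109 of the 117 tested targets matched by symbol.

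The comparison, gene lists and settings were chosen with earlier results of these data known. The text names Ighm, Krt5 and Col1a1, the 10 called targets with the largest rise, up to 10 with the largest fall, and called list members (up to 4 a list); every other target, such as Postn, B2m and Gm21783, was named after its values were seen. 1 target that this rule names is not reported here.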

Additional observations from a re-analysis of the deposited data

Results flagged for a closer look

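Among 48 groups of values examined (the named targets and depth in the 9 acute segments and in the 5 of plate H), 2 held a segment far from the others, about as many as chance flags at 1 in 20. Gapdh was at 0 in acute no. 2, with the next lowest acute segment at 2.83 per 10000. Acute no. 2 had 3054 counts, and 3 counts would be 9.82 per 10000 there. Vmn2r46 was at 0.945 per 10000 in acute no. 8, from 1 count above the floor, and the other 4 acute segments of plate H were at 3.41 or more.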

How the results depend on the processing

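Depth stayed lower in relapse stroma with the floor kept (-1.37) and on plate H (-4.00, main -2.66). The count of 53 targets called became 31 with the deposited values and no depth covariate, 19 with an expected count of at least 5, 35 of 19962 with no filter (7 higher), 34 in the shared depth range, 19 with plate as covariate, 25 after centring (7 higher), 83 with voom weights, and 14 and 20 without position groups acute 1 and relapse 3. The limit-of-quantitation filter gave 36 (11 higher), and no depth covariate 67 (66 higher). With 1 segment left out it ran from 38 (acute no. 2) to 63 (relapse no. 13). On plate H the count of 11 became 69 with no depth covariate, 40 and 3 with the deposited values with and without it, 26 with TMM, 35 with the floor kept, 3 with a pseudocount of 4, 5 with an expected count of at least 1, 44 with the limit-of-quantitation filter (3 higher), 624 of 19962 with no filter (6 higher), 53 after thinning and 85 with voom weights. It was 0 after centring (6 at an unadjusted p under 0.05 by limma), after subtracting olfactory receptor background (15), and without position groups acute 5 (3) and relapse 3 (20); it was 20 and 21 without relapse 2 and 4. With 1 segment left out it ran from 0 (acute no. 8) to 21 (relapse nos. 6 and 8), with 1 without relapse no. 2, 4 without no. 4, and 7 without no. 10 or acute no. 7. The fits with voom weights, thinning and the shared depth range also left out the depth covariate. Hp and Cxcl14 reversed with voom weights and no covariate (0.18 and 0.62), and Bgn without position group acute 1 (0.08). The causes were not tested. Over the 22 named targets, leaving out 1 segment kept direction and side of the threshold in 469 fits, lost the call in 30 and gained it in 7. Centring, voom, background subtraction, position groups and most left-out segments were chosen after seeing the data. The planned count-model tests were not run, since the deposited unit could not be declared as whole reads, although 99.986% of recovered values were whole. The planned tissue-piece fits were not run, since the annotation names no pieces. The shared depth range could not be fitted on plate H, with 1 acute and 2 relapse segments. Depth limits low targets: a relapse segment at the median depth gives 2 counts to a target at the filter.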
